A study of Homo sapiens with 12 samples.

Results

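The genes described here gained a polyadenylation site that the authors placed in an intron or an exon and that was little used in control neurons. They were the named genes of the authors' deposited table of cryptic sites with a site in one of those features. STMN2, SCN9A, AUTS2, STAU2, ARHGAP22, PAK2, zinc finger genes of the ZNF series and long noncoding, antisense and divergent transcripts recognised by their symbols were left out. The rule gave 94 genes with 99 sites, out of 423 named genes and 457 distinct sites in the table. By RefSeq, 88 of the 94 were protein-coding. The rest were 2 long noncoding RNA genes, 2 pseudogenes and 2 transcribed pseudogenes, whose symbols the rule did not exclude. Of the 153 intronic and exonic sites, 17 had no gene name and 37 belonged to 36 genes that were left out. The authors marked all 99 sites as premature.

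The libraries came from cortical neurons that were made from WA01, an established line of human embryonic stem cells, by overexpressing the neurogenic transcription factor NGN2. For 7 days the neurons received either a scrambled shRNA (the control, genotype label WT) or an shRNA against TDP-43 (genotype label TDP-43 knockdown). Each group had 3 RNA-seq and 3 3' end-seq libraries, 12 in all, and 3' end-seq reads the last bases of polyadenylated RNA. All groups share the 1 stem cell line and the NGN2 induction, and the labels do not say whether replicates were separate cultures.

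The values are the authors' own comparisons, with no value per library, so depth and the spread between replicates are unknown. The level of TARDBP, the gene for TDP-43, and of neuronal markers was not analysed here. In bulk libraries, a change in the mix of cells and a change of site choice within cells cannot be told apart. This holds for every usage value below.

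An RNA polymerase II transcript ends where the cleavage and polyadenylation machinery recognises a poly(A) signal, cuts the RNA and adds a tail. Introns contain many signal-like sequences, and U1 snRNP, which binds the start of introns, and RNA-binding proteins normally keep them silent. When one is used, the transcript loses the exons downstream of it. TDP-43 binds GU-rich RNA, often deep in introns, and represses cryptic splice sites and poly(A) sites there. STMN2, a microtubule regulator gene that was left out by the rule, is the best known example in neurons.

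Usage is read here as the share of 3' ends given to a site, though its denominator is not stated. Over the 99 sites its median was 3.14% in control in the authors' deposited table (range 0.685 to 5.95). In the knockdown its median there was 19.5% (range 10.9 to 82.6). The table was chosen by the authors to hold sites low in control and higher in the knockdown, so these values describe the choice as well as the cells, and there is 1 value per group with no test. The ratio of knockdown to control usage had a median of 6.69 and ran from 3.13 in SERTAD4 to 30.9 in SUMF2, both named after their values were seen. The 302 sites in 3'UTRs and their extensions of other genes had medians of 3.13% and 18.5% in the authors' deposited table, and a median ratio of 6.54. Knockdown usage was at least 20% at 47 of the 99 sites (47.5%) and at 126 of the other 302 (41.7%). It was at least 50% at 5 of the 99 (5.05%) and at 9 of the other 302 (2.98%). The 88 intronic sites had a median knockdown usage of 19.5% and the 11 exonic sites one of 20.3% in the authors' deposited table.

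GSTO2, a glutathione transferase gene, had its intronic site at position 104272260 on the plus strand of chromosome 10 (hg38, as all positions here). Usage there was 4.31% in control and 61.1% in the knockdown in the authors' deposited table. The site lay 3076 nt after the RefSeq start, in the first 8.6% of the gene. PLD5, a member of the phospholipase D family without the usual catalytic site, had 4.44% and 60.1% at position 242500277 on the minus strand of chromosome 1 in the authors' deposited table. AGBL4, a cytosolic carboxypeptidase gene that trims glutamates from tubulin, had 3.42% and 53.0% at position 48726169 on the minus strand of chromosome 1 in the authors' deposited table. In AGBL4 the site lay late, after 86.4% of the gene. These genes share no position along the gene: the sites of GSTO2 and PLD5 lay near the start and that of AGBL4 near the end.

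EGFR encodes the receptor for epidermal growth factor. Its intronic site at position 55021186 on the plus strand of chromosome 7 lay 2169 nt after the RefSeq start, 1.13% into the gene, and had 5.82% usage in control and 47.6% in the knockdown in the authors' deposited table. STX5, a syntaxin gene of membrane fusion at the Golgi, had 2.91% and 46.5% in the authors' deposited table. TNIP1, which encodes a ubiquitin-binding inhibitor of NF-kB signalling, had 2.56% and 38.4% in the authors' deposited table, at 7.01% of its gene. MROH1 had 3.56% and 52.7% in the authors' deposited table. ERCC1, a subunit of the DNA repair endonuclease that cuts beside bulky lesions, had 1.34% and 41.2% in the authors' deposited table, a ratio of 30.8. The ERCC1 site lay 24797 nt before the RefSeq start of the gene, so RefSeq does not place it in an intron of ERCC1.

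**Figure D1:**
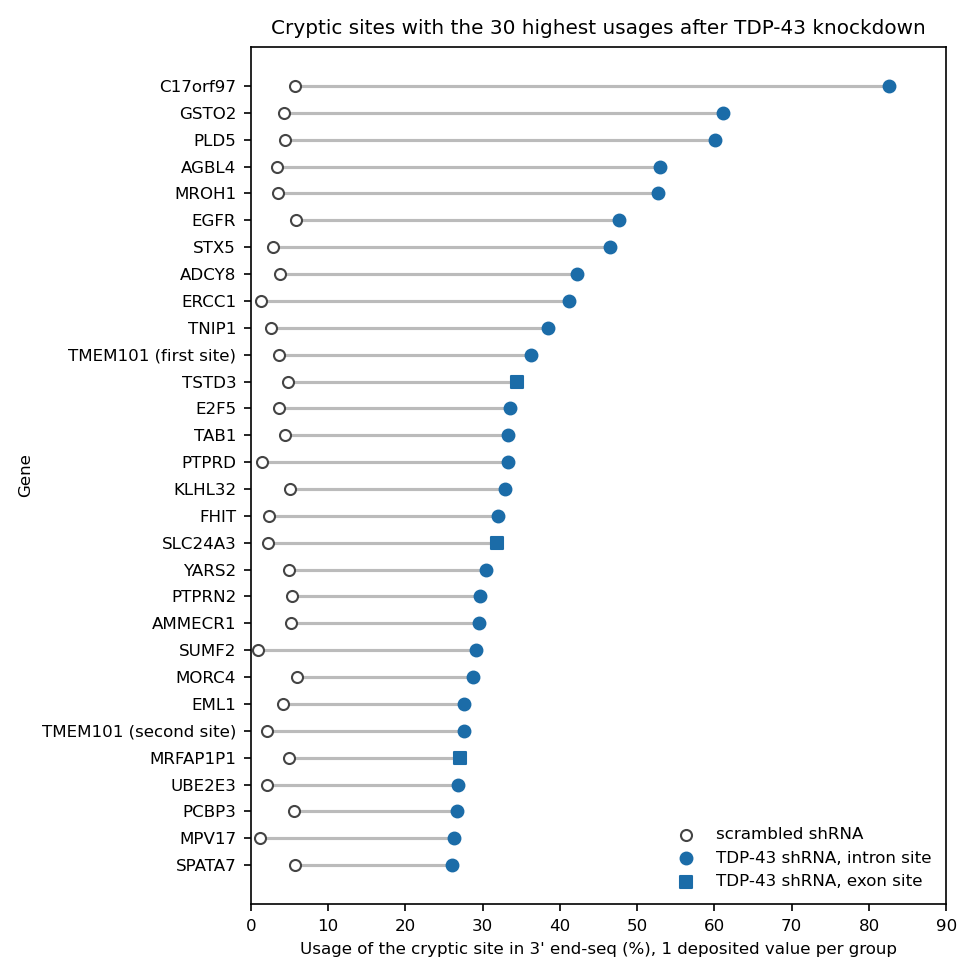
Deposited usage in percent (x axis, denominator not stated) of the 30 member sites with the highest knockdown usage, with a line for each site. Open circles are the scrambled group and filled symbols the TDP-43 hairpin group (circles intronic, squares exonic sites), 1 deposited value each without error; control values stay below 6% and knockdown values run from 26.1 to 82.6%.

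PTPRD, a receptor tyrosine phosphatase that organises synapses, had 1.45% in control and 33.3% in the knockdown in the authors' deposited table. PTPRN2, a phosphatase-like protein of dense-core vesicles, had 5.30% and 29.7% in the authors' deposited table. ADCY8, a calcium-stimulated adenylyl cyclase gene, had 3.79% and 42.3%, and the cannabinoid receptor gene CNR1 had 4.24% and 14.9%, in the authors' deposited table. KCNH7, a voltage-gated potassium channel gene, had 5.09% and 17.5% in the authors' deposited table, 1477 nt after its RefSeq start. The adhesion gene CNTN5, a contactin, had 1.75% and 17.4% in the authors' deposited table, 2912 nt after the start of a gene of 1337937 nt. The transporter gene SLC30A10, which exports manganese, had 4.15% and 19.1% in the authors' deposited table, and PPP1R11, an inhibitor of protein phosphatase 1, had 0.823% and 10.9%. The PPP1R11 usage was the lowest of the 99 in the knockdown.

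The lowest control usage of the members was that of KDM3B, a histone demethylase gene, with 0.685% in control and 13.1% in the knockdown in the authors' deposited table. SAMM50, part of the machine that inserts proteins into the mitochondrial outer membrane, had 0.714% and 14.8% in the authors' deposited table. ZMYND11, a reader of methylated histone H3, had 0.793% and 23.2% in the authors' deposited table. E2F5, an E2F-family transcription factor gene, had 3.64% and 33.6%, and TAB1, an activator subunit of a stress kinase, had 4.38% and 33.3%, in the authors' deposited table. MTERF4, a mitochondrial ribosome assembly factor gene, had 4.25% and 21.5% at an exonic site in the authors' deposited table. The pseudogene MRFAP1P1 had 4.96% and 27.1% at an exonic site 1224 nt past its end in the authors' deposited table.

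In 5 genes there were 2 cryptic sites each, and no gene had more. TMEM101 had 36.2% knockdown usage at a site 327 nt after its RefSeq start and 27.6% at another 3771 nt downstream in the authors' deposited table. BBS9, a subunit of the BBSome that carries cargo into cilia, had 24.0% and 25.9% at sites 12712 nt apart in the authors' deposited table. DLG2, a postsynaptic scaffold gene, had 19.4% at the upstream and 15.3% at the downstream of sites 2790 nt apart in the authors' deposited table. NR4A2, a nuclear receptor gene of dopamine neurons, had 13.2% and 19.4% at sites 760 nt apart in the authors' deposited table. These NR4A2 sites lay 3977 and 3217 nt before the RefSeq start of the gene, so RefSeq does not place them in its introns. HS3ST3B1, a heparan sulfate sulfotransferase gene, had 13.6% and 20.7% at sites 59 nt apart in the authors' deposited table. These pairs share a gene and are not separate observations of it.

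The RefSeq limits of the genes went against the word premature for part of the sites. Of the 99 sites, 67 in 63 genes lay inside the RefSeq gene of the same name, 9 in 8 genes lay before its start and 23 in 23 genes lay past its end. RefSeq here means the outermost start and end of each gene in GRCh38.p14, the assembly behind hg38; the gene models by which the authors assigned features are not stated in these sources. Of the 23 sites past the end, 20 were intronic and 3 exonic by the authors' label, and they lay 50 to 32156 nt past it with a median of 7909 nt. Of these, 15 lay within the limits of another RefSeq gene, 9 of them in one known to run on the opposite strand and 1, that of SAMM50, in a gene on the same strand, PARVB. The other 8 lay in no RefSeq gene. C17orf97, listed in RefSeq as LIAT1, had the highest usage of all members, 5.75% in control and 82.6% in the knockdown in the authors' deposited table, and its site lay 9061 nt past the RefSeq end.

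Sites inside the RefSeq gene were spread along it. They lay 327 to 1297785 nt after the start, with a median of 37816 nt. In 13 the site was in the first 10% of the gene, in 22 between 10 and 50%, in 20 between 50 and 90% and in 12 in the last 10%. The members were long genes with a median RefSeq length of 59860 nt, and 13 of the 94 exceeded 500000 nt. The 293 genes with a cryptic site in a 3'UTR or extension had a median of 36162 nt, and 10 exceeded that length. The part of gene length in which genes hold such a site was not tested.

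The authors' deposited table of 3' end-seq changes pairs a site whose use fell with a site whose use rose, and calls a gene shorter or longer by their order. It listed 66 of the 94 members (70.2%), against 44.7% of the 293 genes with a 3'UTR or extension cryptic site. Both tables come from the same 6 libraries, and 61 of the 99 cryptic sites were themselves the rising site of a pair and 0 a falling site. Of the 66 members, 34 (51.5%) were called shorter and 32 (48.5%) longer in the authors' deposited table. Over all 2220 genes listed there, 15.3% were called shorter and 84.7% longer. Of the 131 genes with a 3'UTR or extension site, 22 (16.8%) were shorter and 109 longer. The members listed with an intronic site were 30 shorter and 27 longer, and those with an exonic site 4 and 5.

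The direction followed the place of the site. Of the 39 listed members with a site inside the RefSeq gene, 30 were shorter and 9 longer in the authors' deposited table. Of the 20 with a site past the RefSeq end, 0 were shorter and 20 longer. Of the 7 with a site before the start, 4 were shorter and 3 longer. Place and direction are read from the same coordinates, so this is a description of where the sites lie and no test was made.

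**Figure D2:**
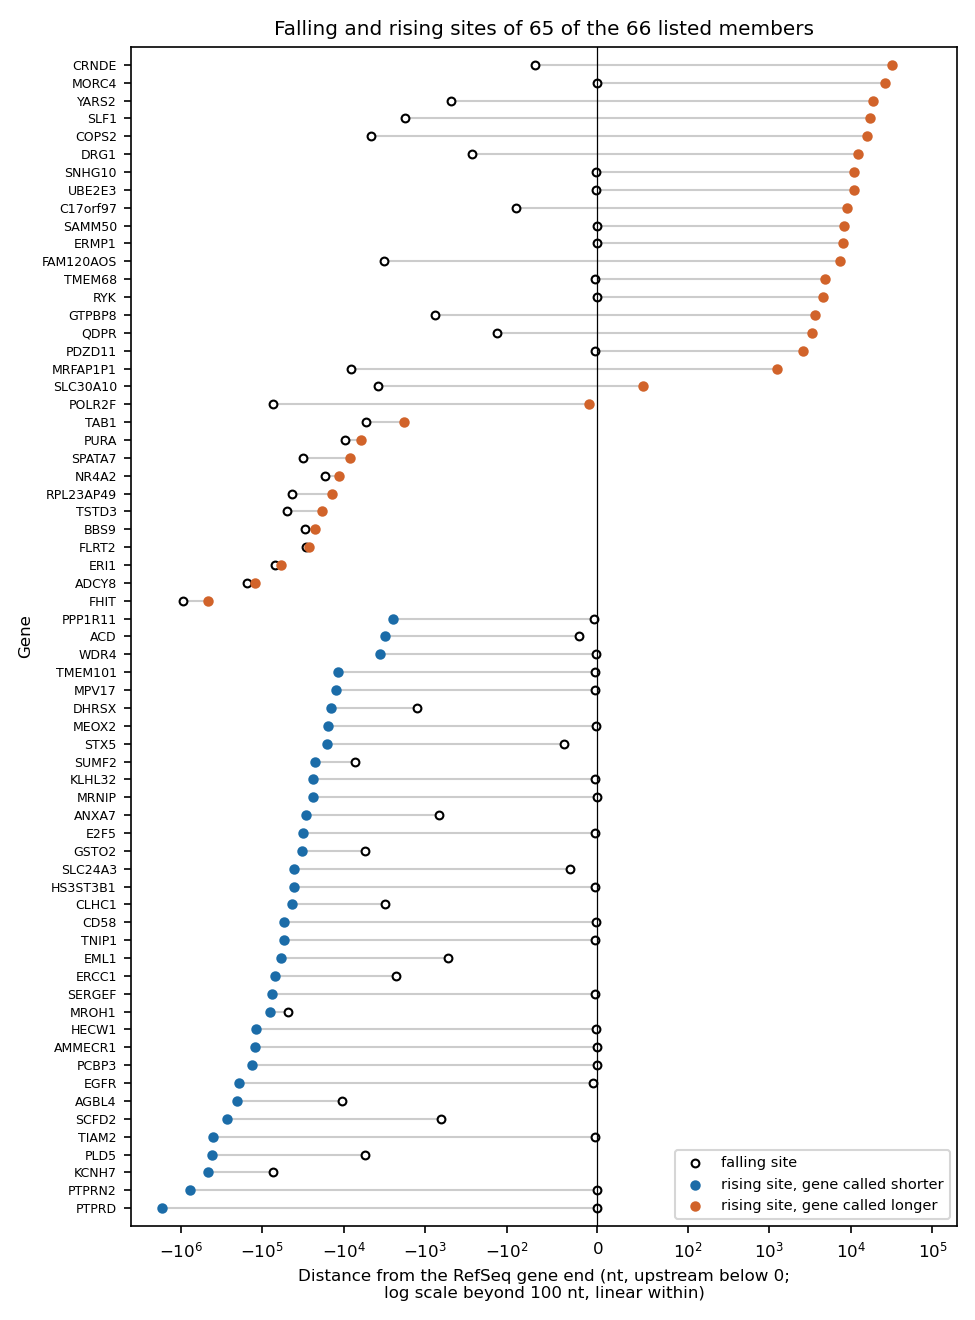
Distance in nt of the falling site (open circles) and the rising site (filled, blue for shorter and orange for longer genes) from the RefSeq end of each of 65 of the 66 listed members, upstream below 0, on an axis that is linear within 100 nt and logarithmic beyond. Falling sites of 22 of 34 shorter genes sit within 100 nt of the RefSeq end with the rising site upstream, and 19 of the longer genes drawn have a cryptic site past that end.

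In shorter members the site that lost use was mostly the annotated end of the gene. The exceptions included GSTO2, PLD5, AGBL4 and MROH1, which had the largest changes. The falling site lay within 100 nt of the RefSeq end in 22 of the 34, with a median distance of 3.5 nt. All 34 had the cryptic site as the rising site (of the longer members 27 of 32), 2449 to 1669225 nt upstream of the falling one with a median of 40987 nt. GSTO2 had the largest change in usage index at -0.569 in the authors' deposited table (authors' adjusted p = 3.18e-156), and the index is a score whose scale is not stated. PLD5 at -0.518, AGBL4 at -0.493, MROH1 at -0.469, STX5 at -0.433 and EGFR at -0.426 followed in the authors' deposited table, with authors' adjusted p from 8.26e-20 in MROH1 to 6.12e-48 in AGBL4. The falling site lay at -5533 nt from the RefSeq end in GSTO2, -5411 in PLD5, -10343 in AGBL4 and -48463 in MROH1, upstream below 0. In STX5 it lay at -37 nt. In EGFR the falling site at position 55211623 was 5 nt from the RefSeq end and 190437 nt downstream of the cryptic site. PTPRD had the widest pair, with its falling site exactly at the RefSeq end, and changed by -0.318 in the authors' deposited table (adjusted p given as 0). PTPRN2 at -0.249 and PPP1R11 at -0.110 were shorter in the authors' deposited table. The symbol lists go by the first letters of a symbol and miss other members of a class. In the list of kinases and phosphatases, all 3 members (PTPRD, PTPRN2 and PPP1R11) were shorter, against 51.5% of all listed members. That list misses the receptor kinase gene EGFR (shorter), the kinase gene MARK1 (not listed) and RYK, a receptor kinase family gene (longer). RYK is named here after its values were seen, and no class was tested. Of the 3 members in the list of channels and transporters, KCNH7 and SLC24A3 were shorter and SLC30A10 longer. The 1 member in the adhesion list, CNTN5, was not listed in 3' end-seq. No member symbol matched the list of GTPase regulators, but the rule had left out ARHGAP22, whose symbol matches it. The rule had also left out SCN9A, which matches the list of channels. The list of GTPase regulators misses TIAM2, an activator of the GTPase Rac that was shorter. KCNH7 at -0.106 (adjusted p = 0.0142) was the smallest change among the shorter members in the authors' deposited table, and its falling site lay 74093 nt before the RefSeq end. The median change of the 34 was -0.226, and that of all 339 genes called shorter was -0.197.

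In longer members with a site past the end, the falling site was again close to the annotated end. It lay within 100 nt of it in 11 of 20, with a median distance of 79.5 nt, and the rising site was downstream by a median of 9934 nt. C17orf97 changed by 0.711 (adjusted p = 5.25e-61), the largest change of the longer members, in the authors' deposited table. UBE2E3, a ubiquitin-conjugating enzyme gene, changed by 0.247 (adjusted p given as 0) and SAMM50 by 0.139 (adjusted p = 1.99e-168) in the authors' deposited table. The UBE2E3 falling site lay 1 nt before the RefSeq end, and its cryptic site, with 2.14% usage in control and 26.8% in the knockdown in the authors' deposited table, lay 10960 nt past that end. The GTP-binding protein gene DRG1 changed by 0.111 and SLC30A10 by 0.122 in the authors' deposited table. The cryptic sites of these genes lay downstream of the RefSeq end. That of SAMM50 lay within PARVB on the same strand, and to which of these genes the 3' ends belong was not tested.

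Of the 9 longer members with a site inside the gene, 8 lost use of a site upstream of the cryptic one. In the other, FLRT2, named after its values were seen, the pair did not include the cryptic site and the falling site lay 78886 nt downstream of it. Their falling sites lay 5252 to 942740 nt before the RefSeq end, and none lay within 100 nt of it. ADCY8 changed by 0.373 (adjusted p = 6.41e-16) and TAB1 by 0.290 in the authors' deposited table, with 32566 and 3415 nt between the falling and the rising site. TSTD3 changed by 0.290 in the authors' deposited table; its exonic site had 4.79% usage in control and 34.4% in the knockdown. POLR2F, a subunit shared by the nuclear RNA polymerases, changed by 0.164 (adjusted p = 3.60e-266) in the authors' deposited table. Its cryptic site, at position 38041906 on the plus strand of chromosome 22 with 4.17% and 20.3% usage in the authors' deposited table, lay 9 nt before the outermost RefSeq end, and its falling site 74107 nt upstream. RPL23AP49, a ribosomal protein pseudogene, changed by 0.297 in the authors' deposited table between sites that both lay before its RefSeq start. Neither of these was its cryptic site. Of the genes with 2 cryptic sites, BBS9 at 0.201 and NR4A2 at 0.172 were longer in the authors' deposited table. In NR4A2 the falling and the rising site both lay before the RefSeq start. TMEM101 at -0.326 and HS3ST3B1 at -0.179 were shorter in the authors' deposited table. DLG2 was not listed there.

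**Figure D3:**
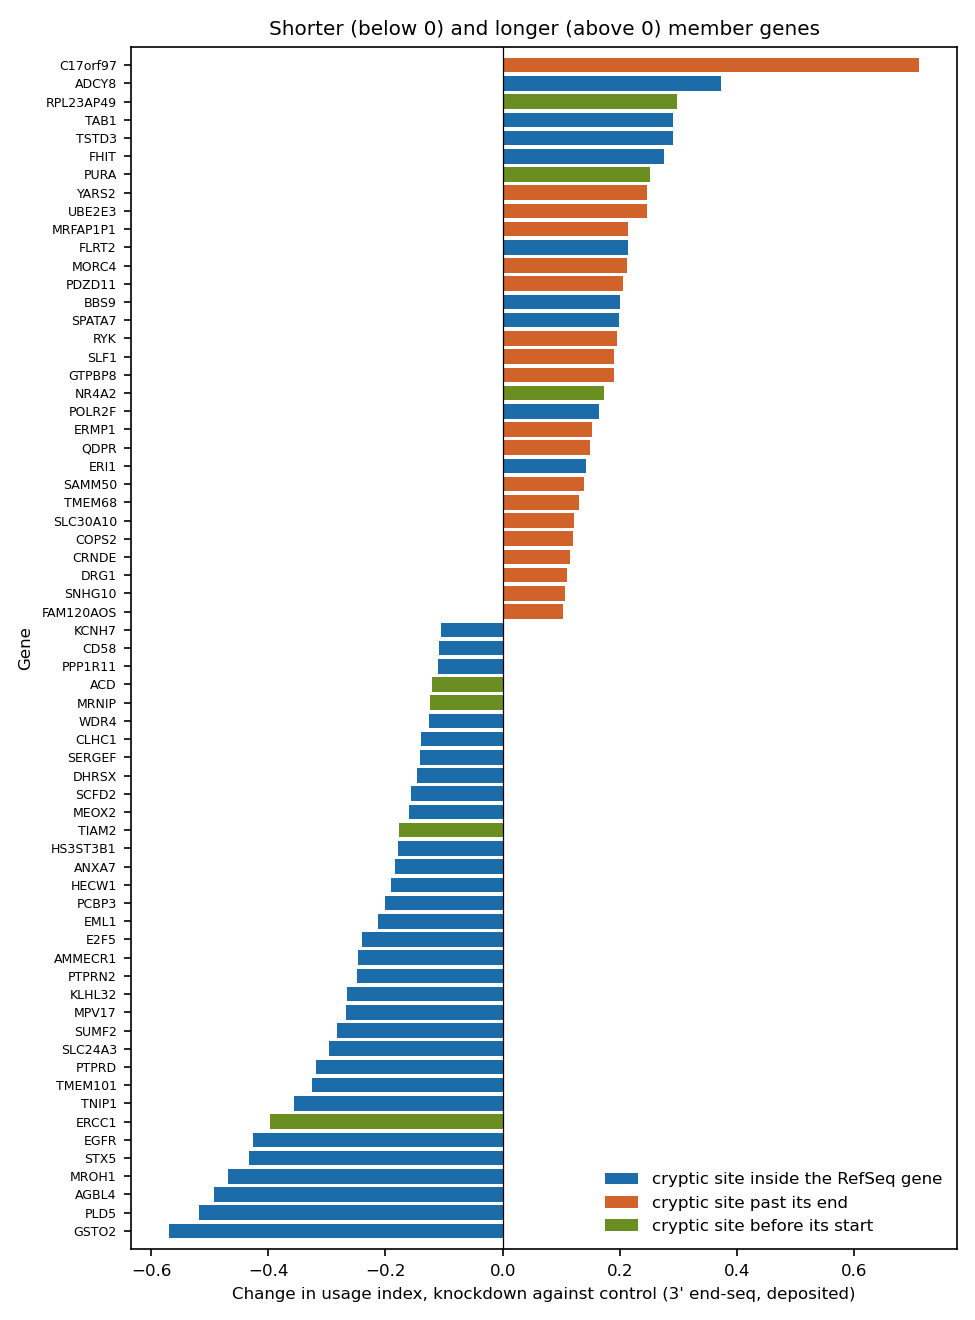
Deposited change in usage index (x axis, a score with no stated scale and no error) for 65 of the 66 members listed from 3' end-seq, with bars below 0 for genes called shorter and above 0 for genes called longer. Colour gives the place of the cryptic site against the RefSeq gene; every bar for a site past the end is above 0, and 30 of the 39 bars for a site inside are below 0.

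The 28 members that the 3' end-seq table did not list had lower usage. Their highest site had a knockdown usage of 12.7 to 23.4% with a median of 17.4%, against a median of 27.1% in the shorter and 19.9% in the longer members in the authors' deposited table. CNR1, CNTN5, DLG2, KDM3B, MTERF4, ZMYND11 and the kinase gene MARK1 were among them. A gene can be missing from that list because no change passed the authors' thresholds or because it was not tested, and these cannot be told apart here.

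RNA-seq, from separate libraries, gave a second reading of polyadenylation for few members. The authors' deposited table listed 7 of the 94 (7.45%), against 20.1% of the 293 genes with a 3'UTR or extension cryptic site, and called 6 distal and 1 proximal. Over all 841 genes listed there, 95.0% were called distal. The score there has another scale, and distal is read as more distal use in the knockdown, which the table does not state. SAMM50 was distal at 2.06 (adjusted p = 2.85e-17), UBE2E3 at 1.75 (8.90e-05) and DRG1 at 1.01 (2.92e-12) in the authors' deposited table. These 3 were longer in 3' end-seq too, each with its cryptic site past the RefSeq end. TNIP1 at 0.707 (adjusted p = 2.97e-04) and TIAM2, an activator of the GTPase Rac, at 0.599 (0.00406) were distal in the authors' deposited table but shorter in 3' end-seq at -0.357 and -0.176. TIAM2 had 5.60% usage in control and 22.5% in the knockdown in the authors' deposited table, at a site 139180 nt before its RefSeq start. MARK1, a kinase that acts on microtubule-associated proteins, was distal at 0.360 (adjusted p = 0.0433) and CNR1 proximal at -0.114 (0.0411) in the authors' deposited table. No shorter member was proximal in RNA-seq, and whether that assay could see intronic ends was not tested.

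Splicing was the third measure, also from the RNA-seq libraries. A cluster is a set of introns that share splice sites, and each intron's value is its change in share of the cluster in percentage points. The authors' deposited table listed clusters for 17 of the 94 members (18.1%), against 21.8% of the 293 genes with a 3'UTR or extension cryptic site. These 17 had 23 clusters with 129 introns, and the authors labelled all 23 clusters as cryptic, as they did 88.8% of all 2994 clusters listed. A change of at least 10 points was found in 29 of the 129 introns (22.5%), against 10.7% of all 15980 introns listed. Of the 17 members, 10 were shorter, 4 longer and 3 not listed in 3' end-seq. Positive values are read as higher in the knockdown, which the table does not state.

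Listed junctions met the cryptic site itself in few members. A junction of the same strand ended up to 1000 nt upstream of the site in 4 of the 94 (4.26%): SERGEF, ZMYND11, POLR2F and CNR1. The same was found for 3 of the 293 genes with a 3'UTR or extension site (1.02%). How far the sites of each group lie from any 3' splice site was not compared. Counting junctions that span the site or start just after it, 8 members had a listed junction at their site. In 10 others the listed junctions were elsewhere, from 2379 nt away in ADCY8 to 442901 nt away in KCNH7.

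SERGEF had its cryptic site between a pair of unannotated splice sites. The site at position 17863590 on the minus strand of chromosome 11 had 2.45% usage in control and 16.5% in the knockdown in the authors' deposited table. In RNA-seq the annotated intron from 17788413 to 17878208, which spans the site, changed by -51.2 points (adjusted p of the cluster 2.55e-11) in the authors' deposited table. Junctions to an unannotated 3' splice site at 17863782 gained 22.5 points from 17866791 and 10.1 points from 17878208, and a junction leaving from 17863566 gained 19.9 points, in the authors' deposited table. The splice sites at 17863782 and 17863566 bound 216 nt, and the polyadenylation site lay 24 nt before the second of them. The gene was shorter in 3' end-seq at -0.141 (adjusted p = 1.06e-30) in the authors' deposited table. A 3' end within this interval and splicing onward from it were thus listed in separate libraries.

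SLC24A3, which encodes a potassium-dependent sodium-calcium exchanger, changed at the splice site next to its polyadenylation site. The site at position 19681987 on the plus strand of chromosome 20 had 2.19% usage in control and 31.8% in the knockdown in the authors' deposited table. It lay 4 nt before the 5' splice site at 19681991, whose annotated intron to 19684176 changed by -78.0 points (adjusted p of the cluster 6.49e-11) in the authors' deposited table. From the same 5' splice site, junctions to unannotated sites at 19683913 and 19683910 gained 30.7 and 24.9 points, and a junction from 19683960 to 19684176 gained 22.4 points, in the authors' deposited table. These bound an extra exon of 47 or 50 nt, 1973 nt downstream of the cryptic site at its far end. No other of the 129 member introns changed by more. SLC24A3 was shorter in 3' end-seq at -0.296 (adjusted p = 4.19e-130) in the authors' deposited table, 40909 nt from its falling site.

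ZMYND11 moved toward an annotated exon just upstream of its site. The site at position 222126 on chromosome 10 lay 931 nt after the 3' splice site at 221195 and 770 nt after the 5' splice site at 221356, which bound 161 nt. The annotated intron from 210048 to 236838, which skips this exon and spans the site, changed by -11.2 points (adjusted p of the cluster 0.00299) in the authors' deposited table. The introns into and out of the exon gained 6.6 and 4.4 points in the authors' deposited table. In E2F5 the annotated intron from 85177654 to 85202147 spanned the site at 85182854 and changed by -10.6 points (adjusted p of the cluster 0.00748) in the authors' deposited table. The other intron of that cluster, from an unannotated 5' splice site 1293 nt downstream, gained the same share and also spanned the site. In PTPRN2 the annotated intron from 158205273 to 158316819 spanned its site and changed by -11.3 points (adjusted p of the cluster 2.61e-10) in the authors' deposited table. Other introns across the same sites gained share: 4.4 points in ZMYND11 (the intron out of the exon), 10.6 in E2F5 and 2.4 in PTPRN2 in the authors' deposited table. A second PTPRN2 cluster, away from the site, held a larger change, -31.2 points in the annotated intron from 157898737 to 158081298 in the authors' deposited table.

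POLR2F and CNR1 had smaller changes at the site. In POLR2F the annotated intron from 37967170 to 38041068, ending 838 nt upstream of the cryptic site, gained 8.7 points (adjusted p of the cluster 2.35e-05) in the authors' deposited table. The gene was longer in 3' end-seq, as described above. In CNR1 the only such junction ended 714 nt upstream of the site and changed by -0.8 points in the authors' deposited table. Its cluster of 23 introns had an adjusted p of 2.16e-13, and the largest change there was 8.0 points in an annotated intron that spans the site, in the authors' deposited table. PCBP3, an RNA-binding protein gene named here after its values were seen, had a site spanned by 2 introns that the authors' deposited table assigned to no gene, one at 2.2 and the other at -5.3 points.

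**Figure D4:**
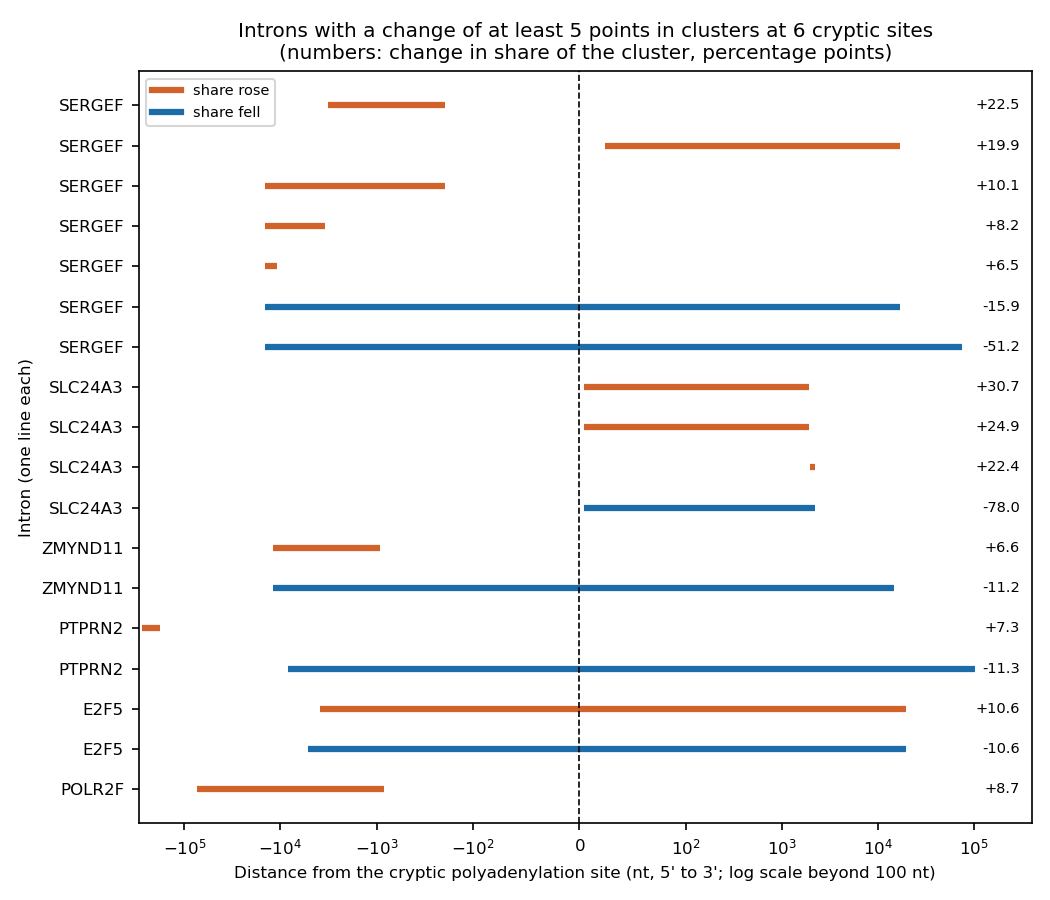
Introns that changed by at least 5 points in the clusters at the cryptic sites of 6 members, drawn from their 5' to their 3' splice site. Distance is in nt from the cryptic site (dashed line at 0), linear within 100 nt and logarithmic beyond. CNR1 (8.0 and -5.8 points) and PCBP3 (-5.3 points) also had such introns across their sites and are not drawn. Orange introns gained share of their cluster and blue ones lost it, with the deposited change in percentage points at the right and no error; blue introns cross the site in SERGEF, ZMYND11, PTPRN2 and E2F5, an orange one of equal size crosses it in E2F5, and in SLC24A3 the blue and 2 orange introns start 4 nt after it.

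Sequence next to a member site could be read for few members, since the reference used held only the 300 bases around gene starts. Such a window lay within 500 nt of 4 sites and contained 0 of the 99. For ACD, a shelterin subunit gene that protects telomeres, named here after its values were seen, the start window of the neighbouring gene PARD6A lies just upstream of the cryptic site. The 30 bases nearest to the site, at chr16:67660710-67660739 on the minus strand (GRCh38.p14, RefSeq), are shown because they hold a GU repeat of the kind TDP-43 binds, in capitals and with T for U.
ACD upstream stretch: aagtaccatttatttagcgctGTGTGTGTG
The stretch ends 81 nt upstream of the ACD site at position 67660629, which had 0.845% usage in control and 13.2% in the knockdown in the authors' deposited table. ACD was shorter at -0.121 (adjusted p = 8.23e-20) in the authors' deposited table, and the site lay 369 nt before its RefSeq start. The motif GTGTGTGTG was found on the gene's strand in 0.997% and on the opposite strand in 0.783% of 35116 windows of 300 bases, and on the strand of the site in 1 of the 6 windows near member sites. Whether TDP-43 binds there was not tested.

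The machinery that decides on premature ends was read from a list of 30 genes of cleavage factors, U1 snRNP proteins, elongation kinases and termination factors. None of the 30 was a member. From 3' end-seq 7 were longer and 0 shorter. The largest changes were 0.498 in CSTF3 and 0.359 in RBBP6 in the authors' deposited table. CDK12, a kinase that promotes elongation past intronic sites, changed by 0.279 and the termination factor gene PCF11 by 0.212. The others were CPSF6 at 0.259, WDR33 at 0.219 and CSTF2T at 0.164 in the authors' deposited table. Over all listed genes the share called longer was 84.7%. In RNA-seq polyadenylation 0 of the 30 were listed. The splicing table listed 5, with the largest change in SNRNP70, a U1 snRNP protein gene, at 19.2 points (adjusted p of the cluster 2.90e-07) in the authors' deposited table. The numbers of genes tested are unknown, so no share over all genes could be set beside these counts of listed genes. SCAF4, which suppresses early termination, had the only cryptic site of the list, in a 3'UTR extension.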

How the data were processed

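RNA-seq and 3' end-seq libraries of WA01-derived neurons were compared by the authors. Build hg38 and the tools STAR, Salmon, fastp, SAMtools and DESeq2 are listed in the submitters' processing notes, with no role given. The caller of cryptic sites is not given in the sources used here. Site usage is a deposited fraction, printed as a percent, with 1 value per group and an unstated denominator. Changes of the usage index and of intron share are scores the authors deposited. P-values are the adjusted p-values the authors deposited, for changed items only, so the numbers tested are unknown. The 6 per-sample columns of a gene expression table were left out, because no label ties them to samples, so the planned expression test was not run. QuantSeq REV primes on poly(A), and priming at internal A-rich stretches was not tested, with no genome sequence used here.

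Python 3.11.15, pandas 2.3.3, numpy 2.4.6 and matplotlib 3.10.9 were used. Tables were joined by symbol, with RefSeq synonyms for RNA-seq tables, and sites placed against RefSeq gene limits. Functions for distances and placement were tested on simulated coordinates. The 2 repeated lines of the cryptic table were counted once. Genes were named by usage (14 intronic and 6 exonic sites), change (6 per direction), lowest control usage (3), a second site, a junction at the site, RNA-seq listing and symbol lists; exceptions are marked, and 1 member is counted but not reported here. Members and lists were chosen with earlier results of these data known. No test across genes was made.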

Additional observations from a re-analysis of the deposited data

How the results depend on the processing

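No paired analysis was possible because the deposited comparisons hold no value per library, and leaving out single libraries was not possible for the same reason. The alternatives planned for gene expression were not run. The count of members (94) was 130 without the exclusions of the rule and 63 when the site had to lie inside the RefSeq gene. The counts of 34 shorter and 32 longer members were 34 and 27 when the cryptic site had to be the rising site, and 22 and 16 at a knockdown usage of at least 20%. With the site inside the RefSeq gene, an alternative added after seeing the data, they were 30 and 9. The near-equal split thus includes the sites past the end, but place and direction are read from the same coordinates, so this is a description only. Without C17orf97, also added, 31 were longer. The members with a junction ending upstream of the site (4) were 1 within 200 nt, 7 within 5000 nt, 5 on either strand and 1 at a change of at least 10 points, SERGEF in both cases of 1. A 5' splice site up to 100 nt downstream of the site, added later, was found in 2 members, SERGEF and SLC24A3. The 6 distal members stayed at 6, and the 17 members in the splicing table were 16, with symbols as given. Depth is unknown in every table, and no interval could be given.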
